A study of Homo sapiens with 4 samples.

Results

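The 8 genes described here encode the switch at the centre of the integrated stress response, a programme that slows protein synthesis and raises a set of stress genes. They are the 4 eIF2 alpha kinases (EIF2AK1, EIF2AK2, EIF2AK3 and EIF2AK4), the phosphatase subunits PPP1R15A and PPP1R15B, the substrate EIF2S1 and the mitochondrial protease OMA1. They were chosen by symbol from the 58233 genes of the count table, of which 57392 matched a symbol, and all 8 were found. mRNA of the established human pancreatic cancer lines MIA PaCa-2 and PANC-1, labelled WT, was sequenced 24 h after treatment with PBS or cannabichromene (CBC), a cannabinoid of hemp that does not produce intoxication. Each line and treatment had 1 library, 4 in all, and a change inside a line has no replicate behind it. The sample records name PBS as the control, which the methods call a vehicle control, and the methods give acetonitrile as the solvent of CBC. Whether the controls held acetonitrile is not stated, so that CBC and its solvent cannot be told apart. The methods also give each line its own CBC dose, which the paper based on the inhibitory concentration it estimated for that line. The lines were thus not compared at a matched dose. After CBC the paper reports a larger share of cells stained by annexin V, its measure of dying cells, for MIA PaCa-2 than for PANC-1. The part of that difference in the results was not tested.

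Each kinase senses another stress and phosphorylates eIF2 alpha, the product of EIF2S1. The phosphorylated form blocks the exchange factor eIF2B, which lowers general translation but allows translation of ATF4, the main transcription factor of the response. HRI (EIF2AK1) was found as the heme sensor of red cells and also receives the mitochondrial signal, in which OMA1 cuts DELE1 so that DELE1 can bind HRI. PKR (EIF2AK2) binds double-stranded RNA, PERK (EIF2AK3) senses unfolded protein in the endoplasmic reticulum, and GCN2 (EIF2AK4) senses stalled ribosomes and uncharged tRNA. The phosphorylation is removed by protein phosphatase 1, which is guided to eIF2 alpha by GADD34 (PPP1R15A), a subunit induced by stress, or by CReP (PPP1R15B), the subunit present without stress. These activities are set largely at the protein level, and mRNA counts do not measure them.

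The libraries held 21742775 to 27903667 counts on genes. The keratins KRT8 and KRT18 were at 276 to 1801 CPM (normalised read counts, relative to library sizes scaled by the TMM method) in all 4 libraries. KRT19 was at 161 to 744 CPM and KRT7 at 0.0899 to 2.15 CPM. In MIA PaCa-2 cells EPCAM had 0 and 1 counts and CDH1 no count. For PANC-1, control and CBC, EPCAM was at 11.6 and 9.15 CPM and CDH1 at 1.41 and 4.79 CPM. Of the mesenchymal genes, VIM was at 3249 to 4356 CPM in all 4 libraries, and FN1 had at most 5 counts. CDH2 was at 31.9 and 18.6 CPM for PANC-1, control and CBC, and had no count for MIA PaCa-2. Of the fibroblast genes, COL1A2 was at 368 and 94.9 CPM for MIA PaCa-2, control and CBC, and had 0 and 1 counts for PANC-1. COL1A1 was at 134 and 46.4 CPM for PANC-1 and had 11 and 13 counts for MIA PaCa-2, while DCN and LUM had no count. The islet genes INS, GCG and SST and the leukocyte genes PTPRC and CD3E had no count in any library. Another leukocyte gene, CD14, had 123 and 18 counts in the MIA PaCa-2 libraries and 32 and 2 in the PANC-1 libraries, control and CBC. The endothelial gene CDH5 had 49 and 7 counts in the MIA PaCa-2 libraries and 0 and 1 in the PANC-1 libraries. The endothelial gene PECAM1 had no count, and VWF had at most 2. The part of CD14 and CDH5 in the results was not tested. For log2 fold changes edgeR added a prior count of 2. Genes entered a comparison if either of its libraries had at least 1 CPM, and a gene was called when its log2 fold change was past 1 in either direction. The 95% intervals are exact (Clopper-Pearson) and cover counting error only. In these bulk libraries, fewer cells of a kind and less RNA per cell cannot be told apart.

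**Figure D1:**
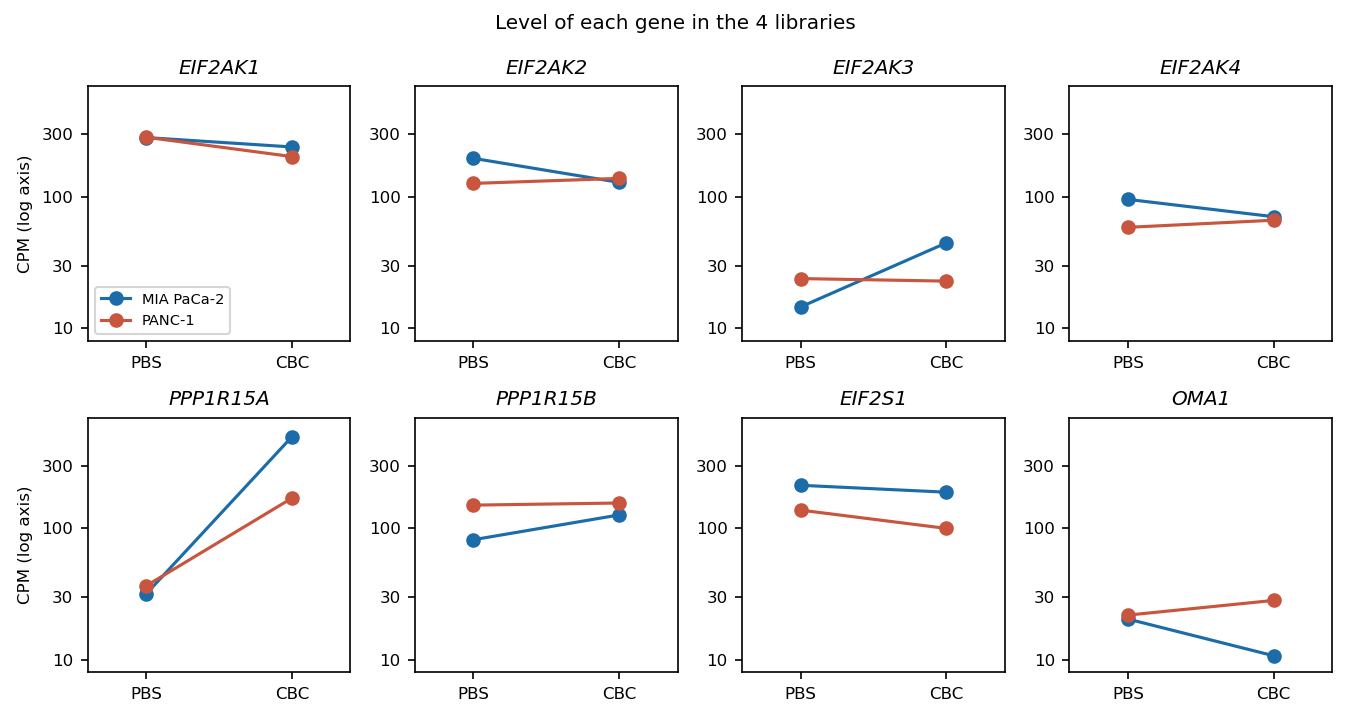
Level of the 8 genes in the 4 libraries, as CPM on a log axis, with PBS on the left and CBC on the right and 1 line per cell line. PPP1R15A climbs steeply in both lines, EIF2AK3 climbs in MIA PaCa-2 cells and is nearly level in PANC-1 cells, and the lines for OMA1 part after CBC.

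PPP1R15A showed the largest change of the 8 genes in both lines, and it was called higher in both. The gene (ENSG00000087074) lies on chromosome 19 of GRCh38 from 48872212 to 48876059 on the plus strand. It had 707 counts in the MIA PaCa-2 control and 12405 counts after CBC, or 31.8 and 502 CPM. In PANC-1 cells it had 832 and 4660 counts, or 36.6 and 171 CPM. The controls of the lines were close to each other, and each CBC library was far above both. The log2 fold change was 3.98 (3.87 to 4.09) in the former line and 2.22 (2.11 to 2.33) in the latter, which is 15.7-fold and 4.65-fold. Of the 14001 genes tested in MIA PaCa-2 cells 0.543% had a larger log2 fold change, and of the 14091 tested in PANC-1 cells 1.04% did.

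PPP1R15B, the subunit present without stress, moved much less. This gene (ENSG00000158615) lies on chromosome 1 from 204396492 to 204411887 on the minus strand. The MIA PaCa-2 control had 82.1 CPM and the CBC library 127 CPM, a log2 fold change of 0.63 (0.54 to 0.71). In PANC-1 cells it was at 150.5 and 156 CPM, and the interval of its log2 fold change of 0.05 (-0.01 to 0.12) included 0. With library totals in place of TMM the value in PANC-1 cells was 0.12. PPP1R15B was therefore not called in either line. Its exons share 523 bases with a long noncoding RNA gene on the opposite strand that the count table lacks. The part of that overlap in the PPP1R15B values was not tested. The balance of the pair shifted toward PPP1R15A in both CBC libraries. Per PPP1R15B count there were 0.387 PPP1R15A counts in the MIA PaCa-2 control (0.355 to 0.423) and 3.96 after CBC (3.80 to 4.12). In PANC-1 cells there were 0.243 (0.225 to 0.262) and 1.09 (1.05 to 1.14). These count ratios do not depend on the scaling of the libraries, but they are not ratios of levels, because the genes differ in length. Per kilobase of merged exons, PPP1R15A was at 9.26 RPKM and PPP1R15B at 8.79 RPKM in the MIA PaCa-2 control, against 146 and 13.6 RPKM after CBC. In PANC-1 cells the pair was at 10.7 and 16.1 RPKM in the control and at 49.7 and 16.7 RPKM after CBC. With the length of the MANE Select transcript, the reference transcript of each gene, PPP1R15A was also the higher of the pair in both CBC libraries (213 against 24.1 and 72.6 against 29.7 RPKM), and the lower one in both controls (13.5 against 15.6 and 15.6 against 28.6 RPKM).

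The promoters of both phosphatase subunits are shown because the genes encode the same kind of subunit and their mRNA moved so differently. The sequences are RefSeq windows on GRCh38.p14 from 250 bases before to 20 bases after the annotated start, 5′ to 3′ on the strand of the gene. Capitals mark matches to the motifs searched, on either strand: TGATGNAA (the core of the element bound by C/EBP and ATF4 dimers), TGACGTCA (the cyclic AMP response element), the core of the interferon-stimulated response element (GAAA, any 2 bases and GAAA again), the ER stress response element (CCAAT, any 9 bases and CCACG), and the CCAAT box, which is also part of that element. PPP1R15A is at chr19:48872171-48872440, plus strand, and PPP1R15B at chr1:204411798-204412067, minus strand.
PPP1R15A: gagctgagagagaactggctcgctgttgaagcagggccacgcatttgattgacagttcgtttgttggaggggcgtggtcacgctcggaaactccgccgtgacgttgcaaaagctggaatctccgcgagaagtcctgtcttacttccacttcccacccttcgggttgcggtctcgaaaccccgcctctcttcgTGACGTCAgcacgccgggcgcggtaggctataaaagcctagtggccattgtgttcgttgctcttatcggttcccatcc
PPP1R15B: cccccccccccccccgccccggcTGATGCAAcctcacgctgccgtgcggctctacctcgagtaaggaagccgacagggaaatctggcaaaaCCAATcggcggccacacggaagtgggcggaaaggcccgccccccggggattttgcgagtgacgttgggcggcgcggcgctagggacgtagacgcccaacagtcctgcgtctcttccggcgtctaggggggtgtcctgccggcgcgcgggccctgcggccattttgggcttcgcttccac
The PPP1R15A window held TGACGTCA at positions -58 to -51, with the start base as 0, a motif found in 1.85% of the 35116 promoter windows of 300 bases. The PPP1R15B window held TGATGCAA at positions -227 to -220, and TGATGNAA was found in 3.62% of all windows. It also held CCAAT, which 34.6% of windows had. A match of letters is a description and does not show that a factor was bound. A window without a match can still hold a site, since sites with other letters were not sought.

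EIF2AK3, which encodes PERK, was the only one of the 4 kinases that was called, and only in MIA PaCa-2 cells. It lies on chromosome 2 from 88556741 to 88691518 on the minus strand (ENSG00000172071). It had 323 counts in the MIA PaCa-2 control and 1106 after CBC, or 14.5 and 44.7 CPM. PANC-1 cells had 543 counts in the control and 624 after CBC, or 23.9 and 22.8 CPM. The MIA PaCa-2 library after CBC was thus the highest of the 4, although the MIA PaCa-2 control was the lowest. The log2 fold change was 1.62 (1.44 to 1.81) for MIA PaCa-2. For PANC-1 it was -0.06 (-0.23 to 0.10), and 0.005 with library totals.

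EIF2AK1, which encodes HRI, was the most abundant of the 4 kinase mRNAs and was lower after CBC in both lines, without reaching the threshold. It lies on chromosome 7 from 6022247 to 6059175 on the minus strand (ENSG00000086232). Its counts were 6299 and 5942 for MIA PaCa-2 and 6477 and 5543 for PANC-1, in the order control and CBC. The log2 fold changes were -0.24 (-0.29 to -0.19) and -0.49 (-0.54 to -0.44). Exons of EIF2AK1 share 532 bases with AIMP2 on the opposite strand, and how the counting treated strand is not given in the sources used here. AIMP2 had 1419 and 1905 counts for MIA PaCa-2 and 1797 and 2041 for PANC-1, and its part in the EIF2AK1 values was not tested.

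EIF2AK2 and EIF2AK4 were lower after CBC for MIA PaCa-2 and slightly higher for PANC-1, and neither was called. EIF2AK2 (PKR; chromosome 2, 37099210 to 37157522, minus strand) had 4376 counts in the MIA PaCa-2 control and 3191 after CBC, against 2883 and 3783 in PANC-1 cells. Its log2 fold change was -0.61 (-0.68 to -0.54) for MIA PaCa-2 and 0.13 (0.06 to 0.20) for PANC-1. EIF2AK4 (GCN2; chromosome 15, 39934115 to 40035591, plus strand) had 2130 and 1749 counts for MIA PaCa-2 and 1334 and 1816 for PANC-1. For EIF2AK4 the log2 fold changes were -0.44 (-0.53 to -0.35) and 0.18 (0.08 to 0.28). Both kinases were highest in the MIA PaCa-2 control. After CBC the lines were closer to each other, with EIF2AK2 at 129 and 138 CPM and EIF2AK4 at 70.7 and 66.5 CPM in MIA PaCa-2 and PANC-1 cells.

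The promoters of EIF2AK3 and EIF2AK2 are printed as those of the kinase that was called and of the kinase known as an interferon-stimulated gene, with the same motifs in capitals. EIF2AK3 is at chr2:88627445-88627714 and EIF2AK2 at chr2:37156961-37157230, both on the minus strand. Both windows lie inside the gene bounds given above.
EIF2AK3: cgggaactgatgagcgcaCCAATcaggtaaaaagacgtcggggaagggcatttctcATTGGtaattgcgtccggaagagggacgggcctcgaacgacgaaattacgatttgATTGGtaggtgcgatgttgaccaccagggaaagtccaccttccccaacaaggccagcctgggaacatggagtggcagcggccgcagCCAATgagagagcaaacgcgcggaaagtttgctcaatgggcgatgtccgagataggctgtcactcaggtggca
EIF2AK2: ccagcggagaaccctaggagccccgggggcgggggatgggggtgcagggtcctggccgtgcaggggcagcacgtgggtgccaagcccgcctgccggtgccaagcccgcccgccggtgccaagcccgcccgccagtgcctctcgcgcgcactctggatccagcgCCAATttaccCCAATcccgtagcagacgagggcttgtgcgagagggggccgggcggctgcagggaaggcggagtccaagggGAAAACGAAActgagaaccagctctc
The EIF2AK3 window held 4 CCAAT boxes, 2 of them on the other strand and so written as ATTGG, and no match to the other motifs. The EIF2AK2 window held GAAAACGAAA across the start, at positions -6 to 3, a match to the core of the interferon-stimulated response element, which 3.57% of all windows held. It also held 2 CCAAT boxes. Of the 8 genes, 7 had a window in the table, and the windows of EIF2AK4, EIF2S1 and OMA1 held none of these motifs.

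**Figure D2:**
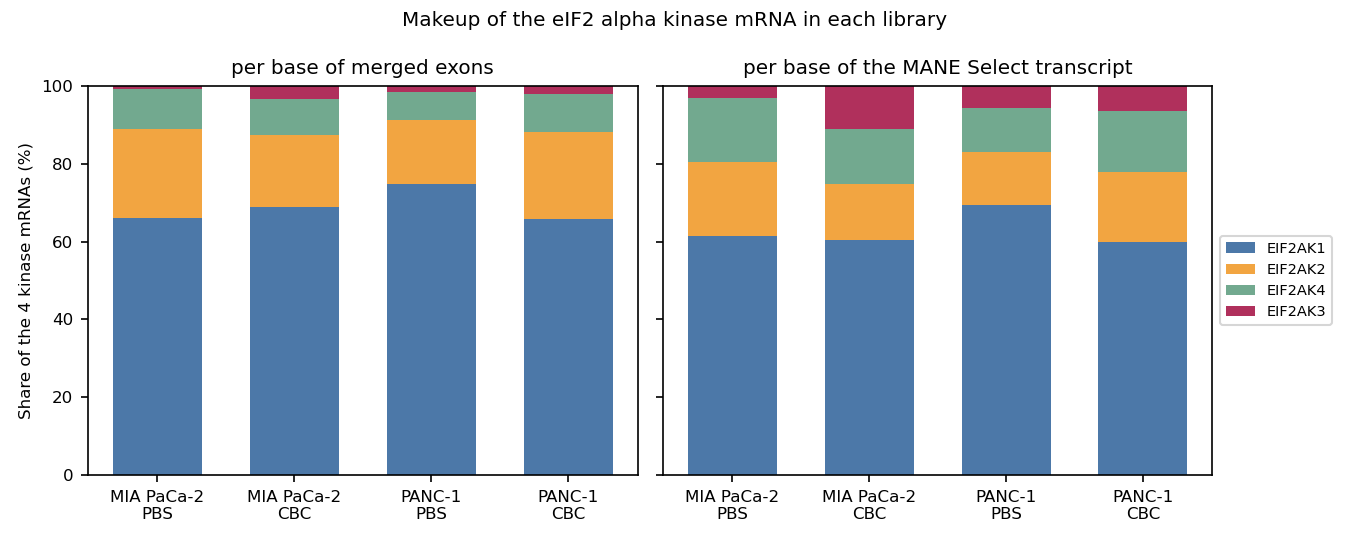
Share of each kinase in the summed level of the 4 kinase mRNAs, in percent, in each library, per base of merged exons (left) and per base of the MANE Select transcript (right). EIF2AK1 fills more than any other kinase in every bar, and the top segment, EIF2AK3, is widest in MIA PaCa-2 cells after CBC on both scales.

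Per kilobase of merged exons, the order of the kinases was EIF2AK1, EIF2AK2, EIF2AK4 and EIF2AK3 in all 4 libraries. EIF2AK1 made up 66.0% of the summed RPKM of the 4 kinases in the MIA PaCa-2 control, 68.9% in MIA PaCa-2 cells after CBC, 74.7% in the PANC-1 control and 65.8% in PANC-1 cells after CBC. EIF2AK3 made up 0.899%, 3.40%, 1.66% and 1.97% in the same order. The merged exons of EIF2AK3 span 20691 bases and its MANE Select transcript 4536 bases, so its level depends strongly on the length used. With the MANE Select transcripts its shares were 3.07%, 11.0%, 5.65% and 6.55%. The order of the kinases was the same on that scale, but EIF2AK2 and EIF2AK4 did not differ beyond counting error in MIA PaCa-2 cells after CBC, with a ratio of levels of 1.01 (0.955 to 1.07). The summed level of the 4 kinases was lower after CBC in both lines, at 78.1 and 63.5 RPKM of merged exons for MIA PaCa-2 and 69.4 and 56.1 for PANC-1.

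EIF2S1, the substrate, was lower after CBC in both lines but was not called. It lies on chromosome 14 from 67360328 to 67386516 on the plus strand (ENSG00000134001). Its counts were 4740 and 4670 in MIA PaCa-2 cells, with a log2 fold change of -0.17 (-0.23 to -0.12). PANC-1 cells had 3135 and 2732 counts, and the log2 fold change was -0.46 (-0.54 to -0.39). Both MIA PaCa-2 libraries lay above both PANC-1 libraries, at 213 and 189 CPM against 138 and 99.98 CPM. The number of PPP1R15A counts per EIF2S1 count was 0.149 and 2.66 in the MIA PaCa-2 libraries, control and CBC, and 0.265 and 1.71 in the PANC-1 libraries.

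OMA1, the protease of the inner mitochondrial membrane, differed in direction between the lines. The gene (ENSG00000162600) lies on chromosome 1 from 58415384 to 58546802 on the minus strand. It had 454 counts in the MIA PaCa-2 control and 265 after CBC, or 20.4 and 10.7 CPM. In PANC-1 cells it had 497 and 773 counts, or 21.9 and 28.3 CPM. The controls were nearly level, and the CBC libraries lay on either side of them. The log2 fold change was -0.92 (-1.15 to -0.71) in MIA PaCa-2 cells, just short of the threshold, and 0.37 (0.21 to 0.54) in PANC-1 cells. OMA1 was the least counted of the 8 genes in MIA PaCa-2 cells after CBC, and its interval was among the widest. DELE1, the protein that OMA1 cuts, had 1269 and 1418 counts for MIA PaCa-2 and 1549 and 1941 for PANC-1, with log2 fold changes of 0.01 (-0.10 to 0.12) and 0.06 (-0.04 to 0.16).

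**Figure D3:**
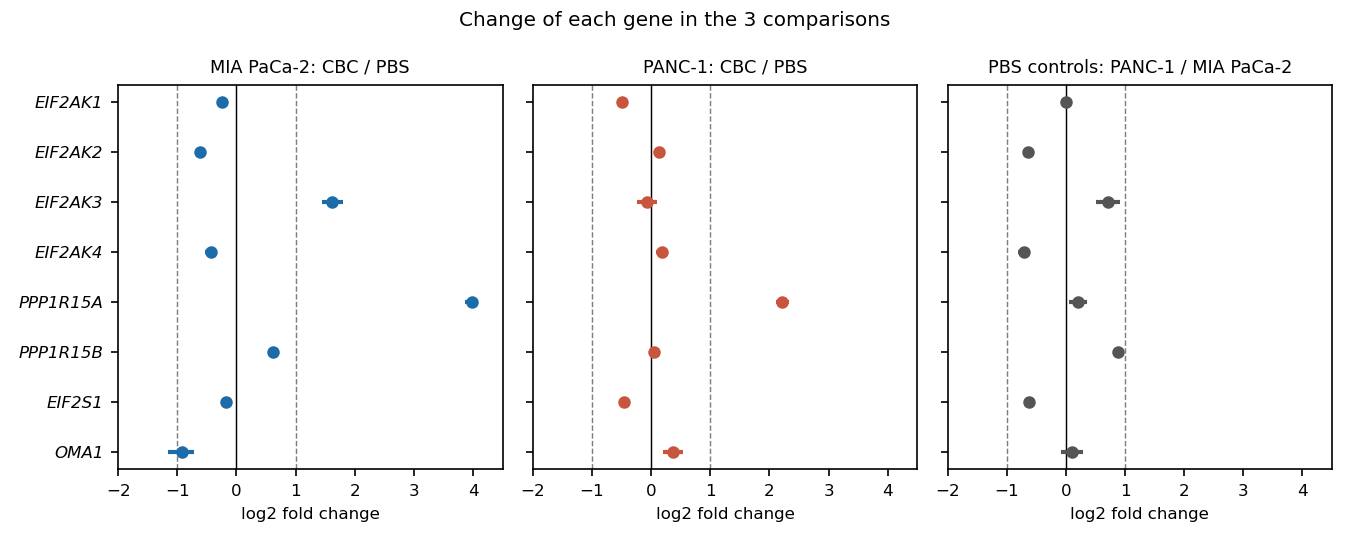
Log2 fold change of each gene with its 95% counting interval, for CBC against PBS in MIA PaCa-2 cells, for CBC against PBS in PANC-1 cells, and for the PANC-1 control against the MIA PaCa-2 control; dashed lines mark the threshold of 1 in each direction. PPP1R15A and EIF2AK3 lie past the threshold in MIA PaCa-2 cells, PPP1R15A alone in PANC-1 cells, and none of the 8 at baseline.

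Of the 8 genes, 2 were called in the MIA PaCa-2 comparison, both of them higher and none lower, where 20.5% of all tested genes were called, 11.5% higher and 8.97% lower. The PANC-1 comparison called 1 of the 8, which was higher, where 14.7% of tested genes were called, 7.71% higher and 7.03% lower. With 8 genes, the shares called in either direction were near the background. The median log2 fold change of the 8 genes was -0.21 for MIA PaCa-2 and 0.09 for PANC-1, beside -0.01 and 0.02 for all tested genes. Most of the 8 genes thus stayed under the threshold, apart from PPP1R15A in both lines and EIF2AK3 in MIA PaCa-2 cells.

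The changes of the lines were also set side by side, as the log2 fold change in PANC-1 cells minus that in MIA PaCa-2 cells, with an exact conditional interval for counting error. It was past 1 in size for 3 of the 8 genes, against 12.9% of the 12502 genes tested in both lines. The difference was -1.76 for PPP1R15A (-1.91 to -1.60), -1.68 for EIF2AK3 (-1.94 to -1.44) and 1.30 for OMA1 (1.02 to 1.58). Relative to the control of its line, PPP1R15A and EIF2AK3 thus gained more in MIA PaCa-2 cells, and OMA1 stood higher in PANC-1 cells. For EIF2AK2 the difference was 0.74 (0.64 to 0.83), for EIF2AK4 0.62 (0.48 to 0.76), and for PPP1R15B -0.57 (-0.68 to -0.47). EIF2AK1 and EIF2S1 differed least, by -0.25 (-0.33 to -0.18) and -0.29 (-0.38 to -0.19). The log2 fold changes had opposite signs in the lines for 4 of the 8 genes (EIF2AK2, EIF2AK3, EIF2AK4 and OMA1), against 30.1% of all genes tested in both. With library totals EIF2AK3 was no longer among them. For 3 of the 8 the interval of each line excluded 0 with opposite signs (EIF2AK2, EIF2AK4 and OMA1), against 12.7% of the 12502 genes. Intervals narrow as counts rise, and the 12502 genes were not matched to the 8 for depth, so these shares are not like for like. None of these differences was tested across cultures.

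Both lines together gave the only replication of CBC against PBS. The quasi-likelihood test of edgeR, blocked on the line and left with 1 residual degree of freedom, called 4.71% of 16381 genes at 0.05 after Benjamini-Hochberg adjustment, 2.26% as higher and 2.45% as lower. Of the 8 genes PPP1R15A alone passed, at a log2 fold change of 3.11 (standard error 0.41, edgeR adjusted p = 0.0132), and it was higher in both lines. Without the block its edgeR adjusted p was 0.99995. EIF2AK3 did not pass (0.78, standard error 0.41, edgeR adjusted p = 0.329). Nor did EIF2AK1 (-0.36, standard error 0.19, edgeR adjusted p = 0.332), which was lower in both lines. The edgeR adjusted p of the other 5 genes was between 0.419 (EIF2S1) and 0.813 (EIF2AK4), and their log2 fold changes were between -0.31 (EIF2S1) and 0.35 (PPP1R15B).

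At baseline, the PANC-1 control was compared with the MIA PaCa-2 control. None of the 8 genes was called, although 41.9% of the 14805 genes tested were, 24% as higher in PANC-1 cells and 18% as lower. The 3 genes that were lower in PANC-1 cells were EIF2AK4 (-0.71, -0.81 to -0.61), EIF2AK2 (-0.63, -0.70 to -0.57) and EIF2S1 (-0.63, -0.69 to -0.56). PPP1R15B (0.87, 0.79 to 0.96) and EIF2AK3 (0.71, 0.52 to 0.92) were higher in PANC-1 cells. PPP1R15A was at 0.20 (0.06 to 0.35), OMA1 at 0.10 (-0.09 to 0.29) and EIF2AK1 at 0.01 (-0.04 to 0.06), so the last 2 did not differ beyond counting error. Library totals moved the median of all genes by -0.13 in this comparison and turned the sign of OMA1 (to -0.03) and EIF2AK1 (to -0.12).

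**Figure D4:**
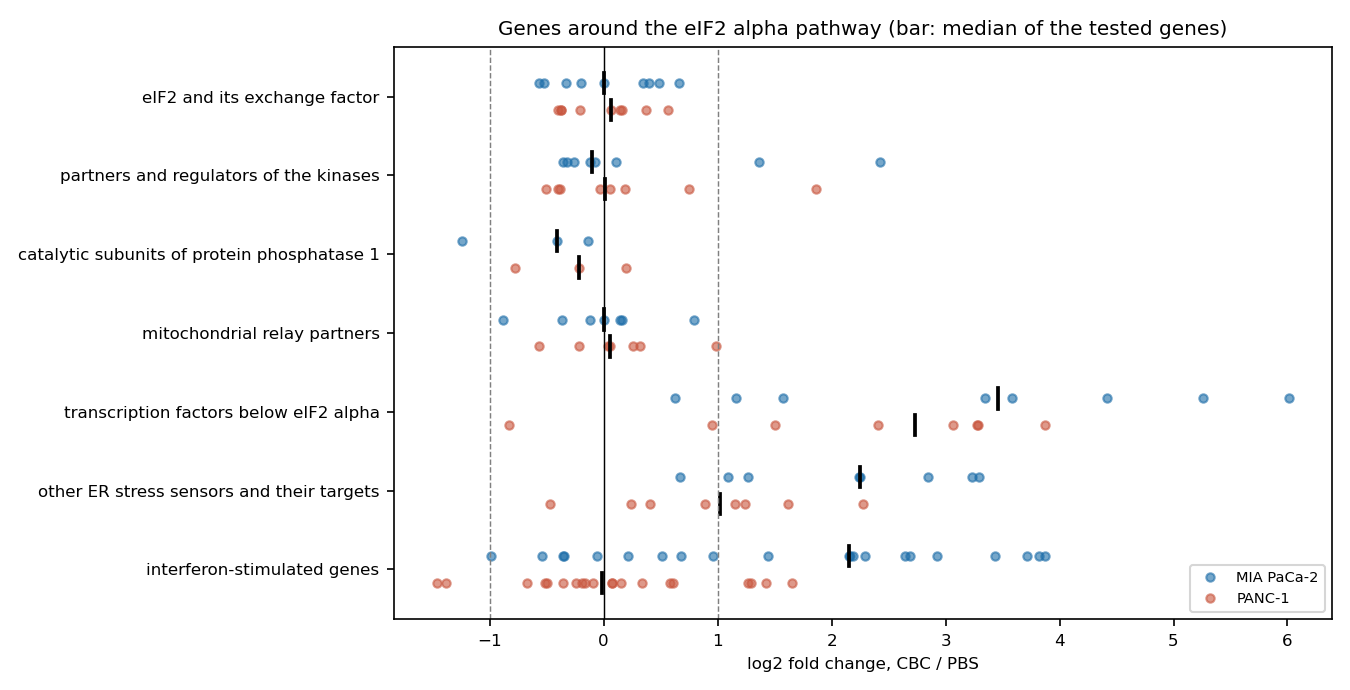
Log2 fold change after CBC of the genes in 7 lists around the pathway, 1 point per tested gene and line; black bars are medians and dashed lines the threshold of 1. The lists of transcription factors below eIF2 alpha and of ER stress sensors sit to the right in both lines, and the interferon-stimulated genes do so in MIA PaCa-2 cells while their median in PANC-1 cells is near 0.

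The machinery around the switch was followed in lists of genes, which were chosen with earlier results of these data known. Their counts are therefore a description, read beside the shares of all tested genes. Those shares were 11.5% called higher and 8.97% lower in the MIA PaCa-2 comparison, and 7.71% and 7.03% in the PANC-1 comparison. In the test over both lines they were 2.26% and 2.45%. None of the 9 genes of eIF2 and its exchange factor (the other eIF2 subunits, eIF2B, EIF5 and CDC123) was called in either line, and their medians were 0.01 and 0.06. The largest values there were those of EIF5, the factor that triggers GTP hydrolysis on eIF2, at 0.66 and 0.56 in MIA PaCa-2 and PANC-1 cells. Of the catalytic subunits of protein phosphatase 1, PPP1CC was called lower in MIA PaCa-2 cells, at -1.25 (-1.31 to -1.18), and was at -0.78 (-0.83 to -0.73) in PANC-1 cells. Over both lines PPP1CC fell by 1.01 (standard error 0.20, edgeR adjusted p = 0.0357), while PPP1CA and PPP1CB did not pass. None of the 7 mitochondrial relay partners was called within a line. LONP1, a protease of the mitochondrial matrix, passed the test over both lines at 0.90 (standard error 0.19, edgeR adjusted p = 0.0391), and OPA1, a fusion protein that OMA1 cuts, was at -0.88 for MIA PaCa-2 and -0.21 for PANC-1.

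Among the 8 partners and regulators of the kinases, the changes past the threshold were those of ER chaperones. HSPA5, the chaperone that keeps PERK inactive, was called higher in both lines, at 607 and 3270 CPM in the MIA PaCa-2 libraries and 731 and 2656 CPM in the PANC-1 libraries. DNAJC3, an ER co-chaperone also known as an inhibitor of PERK and PKR, was at 1.37 (1.25 to 1.49) for MIA PaCa-2 and at -0.50 (-0.60 to -0.41) for PANC-1. IMPACT, which competes with GCN2 for its activator GCN1, was at -0.36 (-0.49 to -0.23) and 0.75 (0.63 to 0.88). In all, 2 of these 8 genes were called higher for MIA PaCa-2 and 1 for PANC-1, where 11.5% and 7.71% of all tested genes were, so that the counts were near the background.

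Of the other ER stress sensors and their targets, 7 of 8 genes were called higher for MIA PaCa-2 (median 2.25) and 4 of 8 for PANC-1 (median 1.02), where 11.5% and 7.71% of all tested genes were. The test over both lines called 5 of them higher, against 2.26% of all genes tested. ERN1, which encodes the sensor IRE1, rose in both lines, by 2.84 (2.66 to 3.05) and 2.27 (2.09 to 2.48), unlike EIF2AK3. DNAJB9, an ER co-chaperone, was at 3.30 (3.11 to 3.50) for MIA PaCa-2 and at 0.41 (0.22 to 0.60) for PANC-1. Among the 8 transcription factors below eIF2 alpha, 7 were called higher for MIA PaCa-2 and 6 for PANC-1, beside the same shares of 11.5% and 7.71%, and 7 were higher in the test over both lines, beside 2.26%. ATF4 itself stood at 207 CPM in the MIA PaCa-2 control and 614 CPM after CBC, against 243 and 469 CPM in the PANC-1 libraries. Its log2 fold change of 0.95 in PANC-1 cells was under the threshold. ATF5, named here after its values were seen, was at 0.63 in MIA PaCa-2 cells and, in the other direction, at -0.83 in PANC-1 cells, and it did not pass over both lines (edgeR adjusted p = 0.911). ATF3 rose by 5.26 (4.98 to 5.61) and 3.87 (3.59 to 4.23), DDIT3 by 4.42 and 3.06, and NUPR1, at 5 counts in the MIA PaCa-2 control, by 6.02 (5.23 to 8.09) and 3.28 (3.11 to 3.47).

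EIF2AK2 did not move with the other interferon-stimulated genes in MIA PaCa-2 cells. There 12 of the 21 tested genes of that list were called higher and none lower, with a median of 2.16, where 11.5% of all tested genes were called higher and 8.97% lower, while EIF2AK2 was at -0.61. In PANC-1 cells 4 of 20 were called higher and 2 lower, with a median of -0.01, where 7.71% and 7.03% of all tested genes were, and EIF2AK2 was at 0.13. ISG15, a ubiquitin-like modifier, was at 3.82 (3.65 to 4.02) for MIA PaCa-2 and at -0.24 (-0.40 to -0.09) for PANC-1. OASL, an antiviral protein, was at 3.71 (3.49 to 3.97) and at 1.63 (0.60 to 3.47), the latter from 6 and 27 counts in PANC-1 libraries that were both under 1 CPM. The test over both lines called 4 of 24 genes of the list, against 4.71% of all genes tested.

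Genes with a profile most like each member were sought among the 10050 genes that averaged 10 CPM or more, as the root mean square distance of centred log2 CPM over the 4 libraries. For PPP1R15A they were GADD45A (distance 0.227) and CEBPB (0.234), and for EIF2AK3 they were MDM2 (0.0928) and ARF4 (0.0995). Those of EIF2AK2 were HIGD1A and ACOT2, and those of EIF2AK4 were KIAA2026 and MTFMT. OMA1 was nearest to TTC5 (0.0433) and STARD9 (0.0554). PPP1R15B was nearest to TNFRSF12A and MAP3K9, EIF2AK1 to ENY2 and TRMT10C, and EIF2S1 to RHNO1 and BAZ1B. Over 4 libraries, the likeness is a description.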

How the data were processed

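Before deposit, the authors removed adapters and low-quality bases with cutadapt 2.7, ran STAR against GRCh38 and obtained a count per Ensembl gene from HTSeq. The strand setting of HTSeq and the version of STAR are not given in the sources used here. The deposited table holds raw counts for 58233 genes with no filter. The deposited normalized signal is a CPM on library sizes that the authors scaled by TMM. It matched the counts divided by those sizes to a relative 6.84e-09, so the counts were used.

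R 4.3.3 and edgeR 4.0.16 gave the log2 fold changes, with TMM scaling of all 4 libraries together and a prior count of 2, and exact intervals came from scipy 1.17.1. At these depths a count of 0 allows up to 3 counts, 0.110 to 0.135 CPM. With 1 library per condition, the intervals cover counting error only. PCR duplicates without molecular identifiers are not independent, so the intervals can be too narrow even for that error. The test over both lines was the quasi-likelihood test of edgeR with Benjamini-Hochberg adjustment and a block for the line, on genes kept by edgeR's own filter (coefficient of biological variation 23.0%), and it was tested on simulated data. The block follows from the design, since each CBC library has a control of its own line, and the paired deviations had a correlation of 0.923. With 1 culture per condition, the p-values set the CBC change against its spread between the lines, estimated partly from all tested genes. They do not measure the spread between cultures of a line.

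Positions and lengths came from GENCODE 44 on GRCh38, a later annotation than the one counted, and promoters from RefSeq. The 8 genes and the lists were chosen with earlier results of these data known. The rule for named genes took all 8 genes, up to 4 genes of each list by the mean size of the change over both lines (at least 1 CPM) with DELE1, ATF4, DDIT3 and HSPA5, and 2 genes of like profile for each of the 8. AIMP2, ATF5 and the marker genes were named outside it. Alternatives changed the scaling, prior count, filter, call, block, tool (DESeq2 1.42.0) and length.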

Additional observations from a re-analysis of the deposited data

Results flagged for a closer look

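For 3 of the 8 genes the counting intervals lay on opposite sides of 0 in the lines, against 12.7% of the 12502 genes tested in both lines. These shares are not matched for depth, since intervals narrow as counts rise. The 8 genes were at 10.7 CPM or more in every library, while the 12502 genes needed only 1 CPM in 1 library of each comparison. The log2 fold change in PANC-1 cells minus that in MIA PaCa-2 cells was 1.30 for OMA1, 0.74 for EIF2AK2 and 0.62 for EIF2AK4. With 1 library for each line and treatment, these differences were not tested.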

How the results depend on the processing

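The counts of called genes among the 8 (2 for MIA PaCa-2, 1 for PANC-1, 0 at baseline) held under the alternatives of scaling, prior count, deposited CPM, filter and interval. The count of 3 with a difference between the lines past 1 held under the 3 other scalings, the only alternatives run for it. The counts over all genes moved by more than 1.5 times with the filter or call: without a filter 5816 genes were called for MIA PaCa-2, 4847 for PANC-1 and 10878 at baseline, against 2864, 2078 and 6207, because more genes were tested. With the counting interval wholly past 2-fold 1719 and 1187 genes were called in the lines, and with at least 1 CPM in both libraries 3594 at baseline. In the test over both lines the 771 called genes became 0 without the block (354 at an unadjusted p under 0.05 in edgeR, while DESeq2 with the block called 1371) and 2063 without a filter. Without the block 0 of the 8 genes were called, since PPP1R15A no longer passed. Its adjusted p was 0.0214 with DESeq2 size factors and 0.0139 with library totals in edgeR, 1.55e-08 in DESeq2 and 1.92e-33 without a filter in edgeR. Of 184 values for single genes under an alternative, 174 stayed within their interval or on their side of the threshold, 9 moved past their interval, all with library totals, and 1 is the loss of PPP1R15A. With the MANE Select transcript length, chosen after seeing the data, the share of EIF2AK1 among the kinases was 61.5% and 60.5% in MIA PaCa-2 cells and 69.3% and 59.8% in PANC-1 cells, control and CBC. Leaving out a library leaves no pair within its line and was not run, and the lines were given separately instead. Depth limits OMA1 and EIF2AK3 most.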
